A study of Mus musculus with 16 samples.

Results

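Integrin and laminin chain genes were followed in messenger RNA of whole mouse liver after deletion of Arid1b, or of Arid1a and Arid1b, in hepatocytes. The set held every row of both count tables whose name was that of an integrin alpha or beta chain or of a laminin alpha, beta or gamma chain. This gave 38 genes, 27 integrins and 11 laminins, of the 24421 rows in each table. The double knockout (DKO) livers were homozygous for the floxed alleles ARID1A f/f and ARID1B f/f and carried Alb-Cre+, and the DKO controls carried both floxed alleles without Cre (Alb-Cre-). The single knockout (BKO) livers were ARID1B f/f with Alb-Cre+, and their controls were ARID1B f/f with Alb-Cre-. Each of the 4 groups held 4 libraries, named here by animal tag (DKO controls are tagged WT). Alb-Cre is a transgene with an albumin promoter and is active mainly in hepatocytes. Cre was present in the knockouts and absent from their controls, and there was no group with Arid1a deleted alone. Age and sex are not given in the labels used here.

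Integrins are cell surface receptors made of 1 alpha and 1 beta chain, and the pair decides which matrix protein or cell is bound. Laminins are trimers of an alpha, a beta and a gamma chain that build basement membranes together with type IV collagen and nidogen. Healthy liver sinusoids have little basement membrane, while bile ducts and larger vessels are lined by one. In liver, stellate cells and fibroblasts, endothelial cells, bile duct cells, leukocytes and hepatocytes carry different integrins.

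The BKO libraries, deposited in a table of their own with their own controls, held 21151726 to 40551934 counts each, and the DKO libraries with their controls 8699417 to 11031443. Arid1b lay at 40.1 to 48.4 CPM (counts relative to library size, with library sizes scaled by the TMM method) in BKO livers and at 81.9 to 86.4 CPM in BKO controls. In DKO livers it lay at 45.4 to 78.0 CPM, against 80.7 to 97.3 CPM in DKO controls, and both decreases were called (edgeR adjusted p = 0.00154 for BKO and 0.0167 for DKO livers). Arid1a lay at 99.6 to 114 CPM in DKO livers and at 112 to 136 CPM in DKO controls, a change that was not called (edgeR adjusted p = 0.149). Gene counts also cover exons outside a deleted part, and the labels used here do not name the floxed exons. Summed hepatocyte markers lay below the control range in DKO livers, at 54243 to 87118 CPM against 117033 to 141300 CPM in DKO controls. Of 8 tested markers, Alb, Apoa1, Ttr and Cyp2e1 were called lower, and Cyp3a11, Hnf4a, Serpina1b and Cps1 were not called. Among all tested genes 19.2% were called higher and 16.6% lower. In BKO livers the sums reached 97740 to 118616 CPM, against 93334 to 102429 CPM in BKO controls. Only Cyp3a11 was called there, and it was lower, beside 0.398% of all tested genes. In whole liver, fewer cells of a type and less RNA per cell cannot be told apart.

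Integrin genes were higher in DKO livers or did not pass the test, and none was called lower. Of the 27 integrins, 23 had enough counts to be tested, and 13 of them rose at an adjusted p under 0.05 (Itga1, Itga3, Itga4, Itga6, Itga7, Itga8, Itga9, Itga11, Itgal, Itgam, Itgax, Itgb2 and Itgb5). Among the 12848 genes tested, 19.2% were called higher and 16.6% lower in DKO livers. The 10 tested integrins that were not called were Itga2b, Itga5, Itga10, Itgae, Itgav, Itgb1, Itgb2l, Itgb3, Itgb4 and Itgb7. The median log2 fold change of the 23 tested integrins was 0.68, and that of all tested genes was 0.02. None of the 23 had a lower value at an unadjusted p under 0.05, and 16 had a higher one. Itga11 passed the count filter through its DKO libraries alone, so its place among the tested genes depended on its rise. Itgax, Itgb4 and Itgae were above the filter cutoff in all 4 DKO libraries, but in only 3, 3 and 1 of the controls. Their controls alone would not have passed the filter. DESeq2 called the same 13, and limma voom called these and Itgae.

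Leukocyte integrins pair the beta chain of Itgb2 with the alpha chains of Itgal, Itgam, Itgax or Itgad, and hold white blood cells to vessel walls and to complement-coated targets. A wider leukocyte list held these genes and Itgae, Itgb7 and Itgb2l. Of its 7 tested genes, Itgal, Itgam, Itgax and Itgb2 rose and none fell, beside 19.2% and 16.6% of all tested genes. The largest log2 fold change of any tested member was that of Itgax (chromosome 7, 128129547 to 128150657, plus strand), the alpha chain known as CD11c on dendritic cells and activated macrophages. Itgax stood at 16.2, 20.3, 12.05 and 13.99 CPM in DKO livers, against 1.68, 2.005, 0.897 and 2.15 CPM in DKO controls (tags DKO-7068, DKO-7070, DKO-7112 and DKO-7137, then WT-7067, WT-7069, WT-7114 and WT-7139, an order kept throughout). Every DKO library was above every control, with a 9.298-fold ratio of means (edgeR log2 fold change 3.21 with SE 0.27, adjusted p = 1.92e-05).

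Itgb2 (chromosome 10, 77530252 to 77565708), the shared beta chain, stood at 23.3, 26.4, 29.2 and 24.9 CPM in DKO livers, against 8.06, 11.2, 7.63 and 8.202 CPM in DKO controls. The groups did not overlap (edgeR log2 fold change 1.56 with SE 0.15, adjusted p = 4.66e-05). Itgam (chromosome 7, 128062640 to 128118491), the CD11b chain of neutrophils and macrophages, stood at 4.599, 6.03, 10.9 and 4.87 CPM in DKO livers, against 1.903, 2.1002, 2.36 and 1.77 CPM in DKO controls. Library DKO-7112 was the highest and the groups did not overlap (edgeR log2 fold change 1.68 with SE 0.31, adjusted p = 0.00195). In the GENCODE M21 annotation 68.7% of the Itgam exon bases are shared with the same-strand gene Gm49368, so how the authors' counting split reads between them affects its level.

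Itgal, the alpha chain of the lymphocyte receptor LFA-1 in humans and mice, averaged 33.7 ± 3.99 CPM in DKO livers and 22.1 ± 4.93 CPM in DKO controls (edgeR log2 fold change 0.60 with SE 0.16, adjusted p = 0.0138), and its groups overlapped in 1 control. Itgae, whose product with the Itgb7 chain binds E-cadherin on epithelia, averaged 2.24 ± 0.607 CPM in DKO livers and 1.16 ± 0.4897 CPM in DKO controls and was not called (edgeR adjusted p = 0.0502). Itgb7 stood at 3.696, 5.398, 3.69 and 3.42 CPM in DKO livers, against 2.58, 3.25, 2.36 and 1.39 CPM in DKO controls. Its groups did not overlap, yet it was not called (edgeR log2 fold change 0.75 with SE 0.28, adjusted p = 0.0629). Both crossed the threshold under some settings. Itgae was called without control WT-7139 (1.27, adjusted p = 0.0187) and Itgb7 without control WT-7069 (0.93, adjusted p = 0.0418). Itgb2l, a gene named for its likeness to Itgb2, had a log2 fold change of -0.26 ± 0.22 (SE), and Itgad, at 12 counts in all DKO libraries and 1 count in all DKO controls, was not tested.

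Markers of some of the cells that carry these chains also differed. For the marker counts in this paragraph, the shares over all tested genes were 19.2% called higher and 16.6% called lower. Of 9 tested recruited macrophage markers 8 rose and 0 fell. All 11 listed recruited macrophage markers summed to 98.5 to 148 CPM in DKO livers and 16.9 to 23.4 CPM in DKO controls. Neutrophil markers summed to 12.2 to 65.2 CPM in DKO livers, with DKO-7112 the highest, against 3.15 to 6.49 CPM in DKO controls. Of 9 listed neutrophil markers only 3 were tested, and all 3 rose. T and NK cell markers summed to 7.67 to 13.2 CPM in DKO livers and 3.91 to 6.78 CPM in DKO controls. Of 12 listed T and NK cell markers only Cd4 was tested, and it rose. Dendritic cell markers summed to 20.9 to 27.1 CPM in DKO livers and 15.6 to 19.97 CPM in DKO controls. Of 6 tested dendritic cell markers, Flt3, Ccr7 and Siglech rose, and Xcr1, Clec9a and Zbtb46 were not called. Summed Kupffer cell markers overlapped between groups, at 497 to 552 CPM in DKO livers and 360 to 604 CPM in DKO controls. Of 10 tested Kupffer cell markers, Cd5l, Marco and C1qa rose, C6 fell and 6 were not called. The part of these cells in the leukocyte integrin result was not tested.

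Itgam and Itgax are neighbours on chromosome 7 and were both called higher, so the bases just upstream of their starts are printed here (RefSeq windows on GRCm38.p6, cut at the GENCODE M21 gene start). Capitals mark the ETS word, GAGGAA, or its reverse complement in Itgam, and the AP-1 word in Itgax.
Itgam upstream, chr7:128062390-128062639, + strand: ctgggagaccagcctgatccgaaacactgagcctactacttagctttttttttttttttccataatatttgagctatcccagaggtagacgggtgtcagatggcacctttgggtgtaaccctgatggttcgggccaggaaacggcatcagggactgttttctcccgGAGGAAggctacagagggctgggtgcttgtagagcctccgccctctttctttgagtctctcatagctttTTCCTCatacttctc
Itgax upstream, chr7:128129300-128129546, + strand: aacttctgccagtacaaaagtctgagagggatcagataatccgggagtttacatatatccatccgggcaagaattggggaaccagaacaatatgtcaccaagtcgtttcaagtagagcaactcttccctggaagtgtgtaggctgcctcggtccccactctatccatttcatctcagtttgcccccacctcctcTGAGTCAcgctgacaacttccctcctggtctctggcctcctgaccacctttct

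The ETS word was spelled GAGGAA. The AP-1 word was spelled TGANTCA. The TEAD word was spelled GGAATG. All were searched on both strands in the 250 bases upstream of each RefSeq start, and the TEAD word can share its first letters with the end of the ETS word. Windows were found for 24 of the 38 members, 19 integrins with 21 windows and 5 laminins with 6 windows. The ETS word was in 42.9% of the integrin windows, in 83.3% of the laminin windows (5 of 6) and in 23.3% of all 32851 windows. These shares count whole windows. In GENCODE M21 the Lama2 and Lamb3 windows lie inside the gene, and the Lamb1 word lies past the gene start. Some integrin windows, such as that of Itga9, also lie inside the gene. The AP-1 word was in 4.76% of the integrin windows (Itgax), in 0 of 6 laminin windows and in 6.75% of all windows. The TEAD word was in 9.52% of the integrin windows, in 16.7% of the laminin windows and in 12.6% of all windows. A word match is a description of the letters and was not tested as a binding site.

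**Figure D1:**
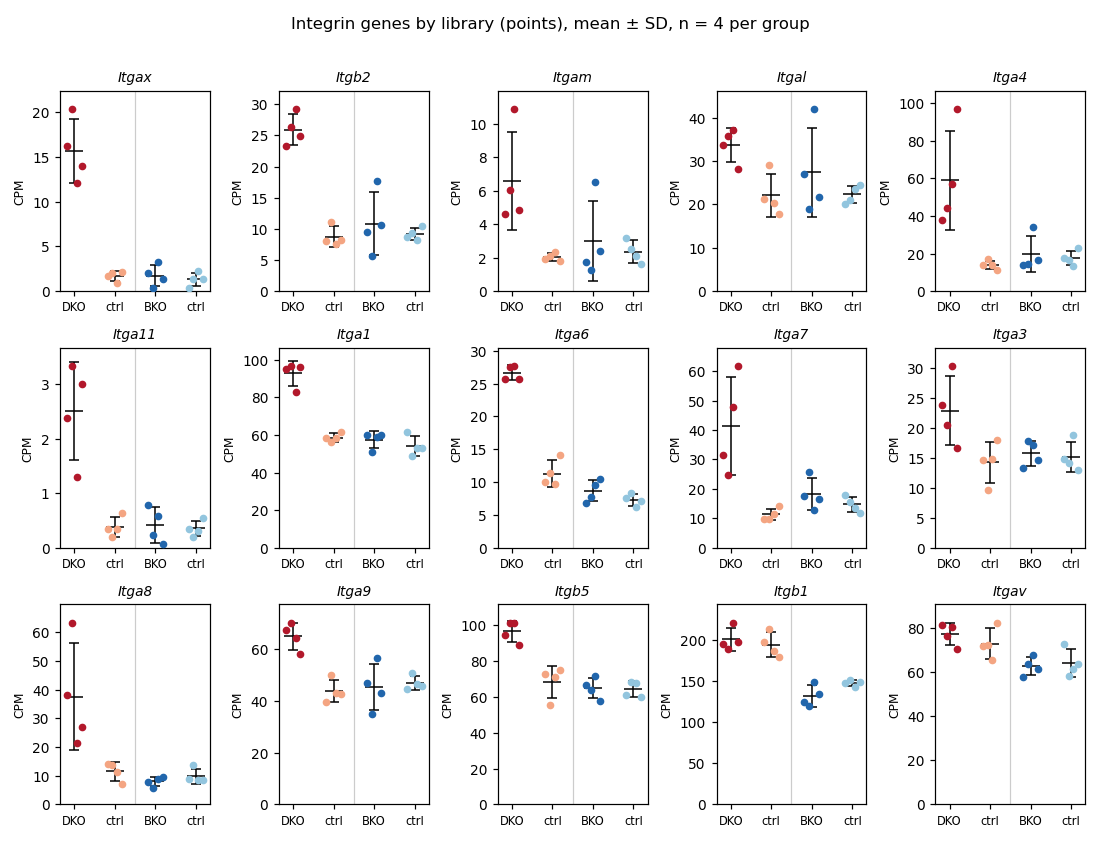
CPM (vertical axes) of 15 integrin genes in each library, shown as points, with the mean and SD (bars) of the 4 libraries of each group. DKO libraries lie above every DKO control for Itgax, Itgb2, Itgam, Itga4, Itga11, Itga1, Itga6, Itga7, Itga8, Itga9 and Itgb5, and the groups overlap for Itgal, Itga3, Itgb1 and Itgav. BKO and BKO control points overlap in every panel.

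Collagen receptors use the alpha chains of Itga1, Itga2, Itga10 and Itga11 with the beta chain of Itgb1. Of the 3 that were tested, Itga1 and Itga11 rose and Itga10 was not called, beside 19.2% of all tested genes called higher. Itga11 passed the count filter through its DKO libraries alone, so its place among these 3 depended on its rise. Itga1 (chromosome 13, 114953096 to 115101964), a collagen receptor chain of stellate cells and other mesenchymal cells, stood at 95.02, 96.7, 82.9 and 96.3 CPM in DKO livers, against 58.3, 56.04, 58.4 and 61.8 CPM in DKO controls. Library DKO-7112 was the lowest DKO liver, and it was still above all controls (edgeR log2 fold change 0.66 with SE 0.09, adjusted p = 0.000428). Itga11 (chromosome 9, 62677826 to 62783982), the fibrillar collagen receptor chain of fibroblasts, stood at 2.38, 3.33, 1.303 and 3.005 CPM in DKO livers, against 0.336, 0.191, 0.337 and 0.631 CPM in DKO controls. These rest on 107 counts over the DKO libraries and 13 counts over the controls (edgeR log2 fold change 2.75 with SE 0.44, adjusted p = 0.00092). Itga10, a cartilage collagen receptor chain, had a log2 fold change of 0.18 ± 0.27 (SE), with 33.5% of its exon bases shared with Gm42957. Itga2 was not tested, with 69 counts over the DKO libraries and 26 over the controls, although its DKO libraries were all higher (1.15, 2.16, 2.28 and 1.04 CPM in DKO livers, against 0.784, 0.859, 0.449 and 0.757 CPM in DKO controls). Without library DKO-7137 it passed the filter and was called (1.35, adjusted p = 0.0249). It then passed the filter through its DKO libraries alone, so that call depended on its rise.

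Stellate cell and fibroblast markers summed to 2379, 3102, 2143 and 2068 CPM in DKO livers and 493 to 704 CPM in DKO controls. Beside 19.2% higher and 16.6% lower among all tested genes, 10 of 14 tested markers rose and 2 fell, Lrat, the vitamin A storage enzyme gene of quiescent stellate cells, and Rgs5. The part of these cells in the collagen receptor result was not tested.

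Laminin receptors use the alpha chains of Itga3, Itga6 and Itga7, with the beta chain of Itgb1 or, for Itga6, that of Itgb4. Itga3, Itga6 and Itga7 rose, and Itgb4 was not called, beside 19.2% of all tested genes called higher. Itga6 (chromosome 2, 71745616 to 71858416) stood at 25.6, 27.5, 27.7 and 25.7 CPM in DKO livers, against 9.96, 11.4, 9.76 and 14.1 CPM in DKO controls. The DKO libraries were close together and more than 10 CPM above the controls (edgeR log2 fold change 1.24 with SE 0.14, adjusted p = 9.97e-05). Itga7 (chromosome 10, 128933818 to 128958282), known from muscle, stood at 31.5, 24.6, 47.98 and 61.8 CPM in DKO livers, against 9.74, 9.93, 11.4 and 14.1 CPM in DKO controls. Library DKO-7137 was the highest and DKO-7070 the lowest, and all 4 were above the controls (edgeR log2 fold change 1.87 with SE 0.28, adjusted p = 0.000989).

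Itga3 averaged 22.8 ± 5.76 CPM in DKO livers and 14.3 ± 3.42 CPM in DKO controls and its groups overlapped (edgeR log2 fold change 0.68 with SE 0.22, adjusted p = 0.03297). The Itga3 call was lost without any one of libraries DKO-7068 (adjusted p = 0.0806), DKO-7070 (0.0552) or DKO-7112 (0.0889). It was also lost without any one of controls WT-7067 (adjusted p = 0.0658), WT-7069 (0.0723) or WT-7114 (0.0665). Itgb4, which anchors hemidesmosomes of epithelia, stood at 5.502, 5.13, 2.39 and 1.35 CPM in DKO livers, against 2.02, 2.005, 2.13 and 1.14 CPM in DKO controls. Libraries DKO-7068, DKO-7070 and DKO-7112 were above every control and DKO-7137 was not (edgeR log2 fold change 0.98 with SE 0.43, adjusted p = 0.102). Without DKO-7137 it was called (1.24, adjusted p = 0.0216).

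Cholangiocyte markers summed to 464, 348, 945 and 133 CPM in DKO livers and 43.1 to 64.5 CPM in DKO controls. Of 7 tested markers 5 rose (Spp1, Prom1, Bicc1, Elf3 and Tspan8) and 0 fell, beside 19.2% and 16.6% of all tested genes. Their part in the laminin receptor result was not tested.

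Itga4 and Itga9 form a pair of related alpha chains that bind VCAM1, osteopontin and tenascin, Itga4 mainly on leukocytes. Both rose. Itga4 (chromosome 2, 79255426 to 79333123) stood at 37.9, 44.4, 57.2 and 96.9 CPM in DKO livers, against 13.9, 16.9, 13.7 and 11.4 CPM in DKO controls. Library DKO-7137 was more than 30 CPM above the other DKO livers, and the lowest DKO liver was above every control (edgeR log2 fold change 2.08 with SE 0.29, adjusted p = 0.00071). Of its exon bases, 8.04% overlap Cerkl on the opposite strand, and the labels used here do not state the strand setting of the counting. Itga9 (chromosome 9, 118606690 to 118901003) stood at 67.3, 70.4, 64.6 and 58.2 CPM in DKO livers, against 39.6, 49.9, 42.96 and 42.9 CPM in DKO controls. Its groups did not overlap, with a smaller change (edgeR log2 fold change 0.57 with SE 0.11, adjusted p = 0.00214).

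Receptors for the RGD motif of fibronectin and vitronectin use the alpha chains of Itga5, Itga8, Itgav and Itga2b. Of these 4, Itga8 rose and 3 were not called. Itga8 (chromosome 2, 12106632 to 12301922), the alpha chain of smooth muscle and stellate cells, stood at 38.4, 63.4, 21.6 and 27.04 CPM in DKO livers, against 14.1, 13.8, 11.2 and 7.07 CPM in DKO controls. Library DKO-7070 was the highest and DKO-7112 the lowest, and the groups did not overlap (edgeR log2 fold change 1.70 with SE 0.36, adjusted p = 0.00637). Itga5, the main fibronectin receptor chain, stood at 47.1, 49.4, 55.8 and 66.4 CPM in DKO livers, against 47.02, 37.6, 27.7 and 58.2 CPM in DKO controls. Its groups overlapped (edgeR log2 fold change 0.36 with SE 0.21, adjusted p = 0.211). Itgav, the alpha chain that activates latent TGF-beta, stood at 81.4, 76.5, 80.6 and 70.5 CPM in DKO livers, against 71.8, 72.5, 65.4 and 82.5 CPM in DKO controls. It was not called either (edgeR log2 fold change 0.08 with SE 0.10, adjusted p = 0.579). Itga2b, the platelet alpha chain, had a log2 fold change of -0.16 ± 0.20 (SE). Summed platelet and megakaryocyte markers overlapped between groups, at 9.94 to 12.5 CPM in DKO livers and 11.1 to 16.8 CPM in DKO controls. The 3 that were tested moved in both directions, with Pf4 called higher and Gp1ba and F2rl2 called lower. Beside this, 19.2% of all tested genes were called higher and 16.6% lower.

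Among the beta chains that pair with these alpha chains, Itgb5 rose. Itgb5 (chromosome 16, 33829665 to 33949338), the vitronectin receptor chain that pairs with Itgav, stood at 94.8, 100.9, 101.4 and 88.9 CPM in DKO livers, against 72.5, 55.4, 70.9 and 74.8 CPM in DKO controls. The groups did not overlap (edgeR log2 fold change 0.50 with SE 0.12, adjusted p = 0.00702). Itgb1 (chromosome 8, 128685654 to 128733200), the beta chain shared by the collagen, laminin and fibronectin receptors, stood at 195, 189, 221 and 198 CPM in DKO livers, against 198, 214, 186 and 179 CPM in DKO controls. These overlapped (edgeR log2 fold change 0.05 with SE 0.11, adjusted p = 0.778). Itgb3, the platelet and vascular beta chain, averaged 7.31 ± 3.33 CPM in DKO livers and 10.99 ± 2.28 CPM in DKO controls and was not called (edgeR log2 fold change -0.60 with SE 0.33, adjusted p = 0.186). Without library DKO-7112 it was called lower (-0.89, adjusted p = 0.0486). Itgb6 (8 counts over the DKO libraries and 2 over the controls) and Itgb8 (71 counts over the DKO libraries and 19 over the controls) were not tested. Itgb8 passed the filter and was called higher without library DKO-7112 (1.85, adjusted p = 0.01502) or without control WT-7067 (1.98, adjusted p = 0.0344). In both cases it passed the filter through 3 DKO libraries alone, so these calls depended on its rise.

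Levels of different integrins were compared as CPM per kilobase of annotated exon. On this scale Itgb1 was the highest integrin, at a level of 49.2 ± 3.46 in DKO livers and 47.6 ± 3.71 in DKO controls (SD, n = 4 each). Itgb5 followed, at 27.2 ± 1.66 in DKO livers and 19.3 ± 2.49 in DKO controls, and then Itga5, at 11.1 ± 1.75 in DKO livers and 8.64 ± 2.64 in DKO controls. Itgb2 was at 8.498 ± 0.81999 in DKO livers, within 1 SD of Itga9 at 8.47 ± 0.672, and at 2.87 ± 0.531 in DKO controls, against 5.702 ± 0.564 for Itga9. Itgax was at 3.26 ± 0.7403 in DKO livers and 0.3501 ± 0.116 in DKO controls. The lowest levels in DKO livers were those of Itgb6 and Itgad, at 0.0264 ± 0.0195 and 0.0638 ± 0.0416.

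Laminin genes changed in both directions in DKO livers. Of the 11, 10 were tested, and 6 rose (Lama2, Lama4, Lama5, Lamb1, Lamb2 and Lamc1) and 3 fell (Lama1, Lama3 and Lamb3), beside 19.2% and 16.6% of all tested genes. Lamc3 was not called. Lamb3 and Lamc3 were above the filter cutoff in all 4 controls, but in only 3 and 2 of the DKO libraries. The DKO libraries alone would not have passed these 2 genes through the filter, so their place among the tested genes depended on their control levels. The median log2 fold change of the 10 was 0.63, and that of all tested genes was 0.02. DESeq2 and limma voom called these 9 as well.

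Lama2 (chromosome 10, 26980036 to 27619758, minus strand), the alpha chain of muscle and mesenchymal basement membranes, stood at 35.97, 45.9, 19.3 and 32.2 CPM in DKO livers, against 9.404, 9.07, 6.28 and 8.58 CPM in DKO controls. Library DKO-7070 was the highest and DKO-7112 the lowest, and the groups did not overlap (edgeR log2 fold change 2.0 with SE 0.25, adjusted p = 0.00025). Lama1 (chromosome 17, 67697259 to 67822647), the alpha chain best known from the embryo, stood at 4.02, 3.24, 1.74 and 3.73 CPM in DKO livers, against 10.3, 18.5, 13.7 and 12.7 CPM in DKO controls. Every DKO library was below every control (edgeR log2 fold change -2.11 with SE 0.27, adjusted p = 0.000223). Lama5 (chromosome 2, 180176373 to 180225859, minus strand), an alpha chain of epithelial and vessel basement membranes, stood at 16.1, 17.6, 15.6 and 12.4 CPM in DKO livers, against 8.84, 8.59, 9.31 and 7.19 CPM in DKO controls. The groups did not overlap (edgeR log2 fold change 0.86 with SE 0.15, adjusted p = 0.00153).

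Lama4, the alpha chain of endothelial basement membranes, averaged 17.9 ± 2.68 CPM in DKO livers and 12.5 ± 1.72 CPM in DKO controls (edgeR log2 fold change 0.52 with SE 0.15, adjusted p = 0.0223). Its groups did not overlap. The Lama4 call was lost without library DKO-7070 (adjusted p = 0.0749), control WT-7069 (0.0586) or control WT-7114 (0.0662). Lama3 (chromosome 18, 12333819 to 12583013), the alpha chain of the skin laminin, stood at 2.63, 2.43, 1.09 and 1.87 CPM in DKO livers, against 2.799, 4.87, 6.39 and 4.04 CPM in DKO controls. The DKO libraries were all lower (edgeR log2 fold change -1.16 with SE 0.33, adjusted p = 0.0197), and the call was lost without control WT-7114 (-0.96, adjusted p = 0.0621).

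Lamb2 (chromosome 9, 108479736 to 108490530), the beta chain of muscle synapse and kidney filter basement membranes, stood at 27.8, 32.8, 20.2 and 15.7 CPM in DKO livers, against 10.1, 10.4, 7.96 and 9.97 CPM in DKO controls. The lowest DKO liver, DKO-7137, was above every control (edgeR log2 fold change 1.33 with SE 0.22, adjusted p = 0.00109). Lamb1 (chromosome 12, 31265234 to 31329644), the widely used beta chain, stood at 27.3, 34.01, 24.2 and 29.2 CPM in DKO livers, against 15.002, 17.4, 14.1 and 18.3 CPM in DKO controls. Its groups did not overlap (edgeR log2 fold change 0.82 with SE 0.14, adjusted p = 0.00113). Lamb3, the beta chain of the skin laminin, stood at 1.56, 1.26, 2.61 and 0.725 CPM in DKO livers, against 2.24, 3.05, 4.37 and 3.79 CPM in DKO controls. Library DKO-7112 overlapped the controls (edgeR log2 fold change -1.13 with SE 0.37, adjusted p = 0.03701).

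The Lamb3 call was lost without any one of libraries DKO-7068 (adjusted p = 0.0779), DKO-7070 (0.0921) or DKO-7137 (0.06998), and without any one of controls WT-7069 (0.0565), WT-7114 (0.0998) or WT-7139 (0.0765). It was also lost with total-count scaling (adjusted p = 0.0757).

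Lamc1 (chromosome 1, 153218922 to 153332786, minus strand), the gamma chain of most laminins, stood at 85.2, 90.1, 67.9 and 64.1 CPM in DKO livers, against 45.6, 52.8, 41.5 and 42.9 CPM in DKO controls. The groups did not overlap (edgeR log2 fold change 0.75 with SE 0.14, adjusted p = 0.00182). Lamc3 stood at 2.14, 3.87, 0.543 and 0.725 CPM in DKO livers, against 3.81, 3.34, 3.14 and 5.43 CPM in DKO controls. Library DKO-7070 lay among the controls and the other 3 below them, and Lamc3 was not called (edgeR log2 fold change -1.07 with SE 0.51, adjusted p = 0.131). Without DKO-7070 it was called lower (-1.74, adjusted p = 0.0185).

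Lama5 and Lamb2 are the called laminins shown with their upstream bases, since the bases of their RefSeq windows upstream of the annotated gene start hold the ETS word or its reverse complement, which the capitals mark. The Lamb2 window runs into the annotated gene and was cut at the gene start, which left 124 bases.
Lama5 upstream, chr2:180225860-180226109, - strand: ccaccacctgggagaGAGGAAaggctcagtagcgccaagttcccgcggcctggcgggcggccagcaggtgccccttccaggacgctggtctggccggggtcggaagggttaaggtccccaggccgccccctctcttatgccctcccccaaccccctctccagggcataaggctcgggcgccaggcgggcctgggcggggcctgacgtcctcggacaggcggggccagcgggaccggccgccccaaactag
Lamb2 upstream, chr9:108479612-108479735, + strand: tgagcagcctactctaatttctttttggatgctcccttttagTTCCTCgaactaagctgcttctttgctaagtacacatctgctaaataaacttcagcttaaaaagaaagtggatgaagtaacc

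**Figure D2:**
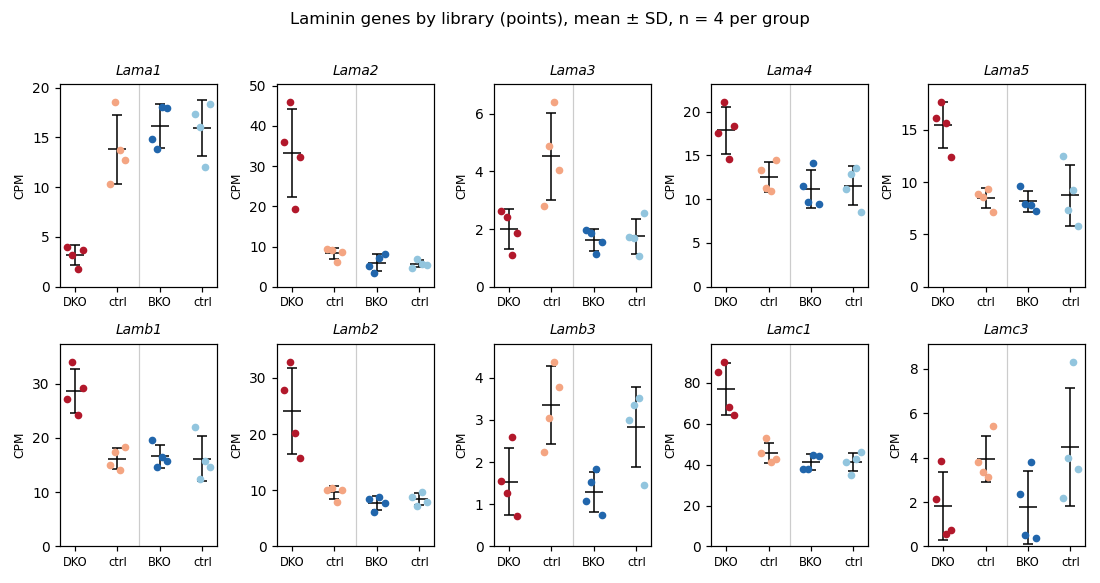
CPM (vertical axes) of the 10 laminin genes tested in DKO livers, in each library (points), with the mean and SD (bars) of the 4 libraries of each group. DKO points lie above every DKO control for Lama2, Lama4, Lama5, Lamb1, Lamb2 and Lamc1 and below every DKO control for Lama1 and Lama3. BKO and BKO control points overlap in every panel.

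The make-up of the laminin alpha chains, as shares of their summed CPM per kilobase of exon, differed between DKO livers and their controls. Lama1 made up 6.05% ± 1.55 in DKO livers and 34.1% ± 5.57 in DKO controls (SD, n = 4 each). Lama2 made up 37.05% ± 5.48 in DKO livers and 12.4% ± 2.43 in DKO controls. Neither share overlapped between the groups. Lama5 made up 25.8% ± 5.64 and Lama4 27.7% ± 2.27 in DKO livers, against 18.1% ± 2.48 and 25.3% ± 4.87 in DKO controls. Shares sum to 100% within a library, so 1 chain's share depends on the others.

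In BKO livers Lama1 made up 43.5% ± 3.06 and Lama2 9.42% ± 2.68, against 42.4% ± 7.07 and 9.07% ± 1.66 in BKO controls. Among the beta chains, Lamb2 made up 55.03% ± 6.78 in DKO livers and 42.4% ± 3.81 in DKO controls, and Lamb3 made up 3.396% ± 2.07 in DKO livers and 13.8% ± 4.23 in DKO controls. Lamc1 made up 95.8% ± 2.61 of the gamma chains in DKO livers and 87.9% ± 2.63 in DKO controls.

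**Figure D3:**
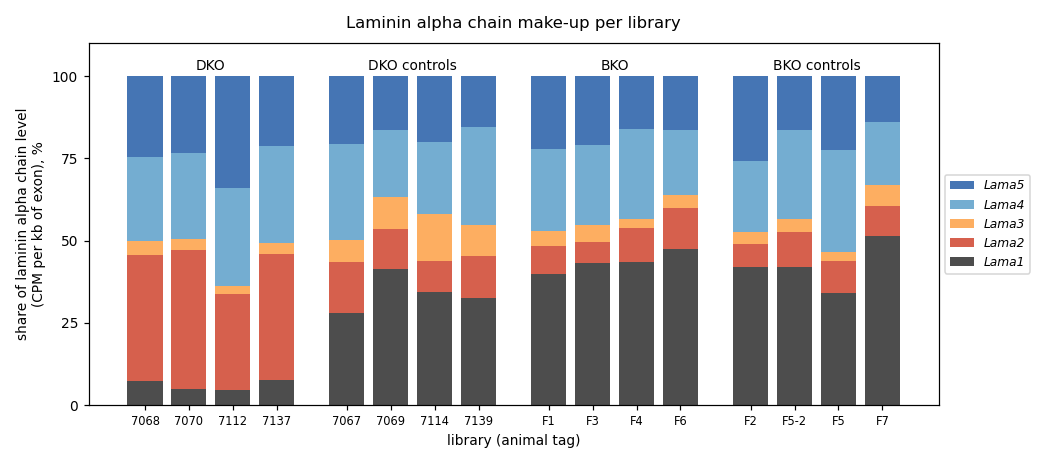
Share of each laminin alpha chain (vertical axis, % of the summed CPM per kilobase of exon) in each library (horizontal axis, by animal tag), stacked to 100%. Lama1 is next to the smallest share in the 4 DKO livers and the largest in 3 of 4 DKO controls and in every BKO and BKO control library.

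Endothelial cells, which produce vessel basement membranes, had markers called in both directions. Of 12 tested, 2 rose and 4 fell in DKO livers, beside 19.2% and 16.6% of all tested genes. Their sum was 714 to 761 CPM in DKO livers and 744 to 910 CPM in DKO controls. Mesothelial markers summed to 3.69 to 7.87 CPM in DKO livers and 1.12 to 4.68 CPM in DKO controls, and 0 of 5 were tested. The stellate cell and fibroblast sums given above did not overlap between groups, and the part of any of these cells in the laminin result was not tested.

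In BKO livers no integrin or laminin was called. Of 25 tested integrins (all but Itgad and Itgb6) 0 rose and 0 fell, beside 0.185% and 0.398% of 14061 tested genes, by edgeR and equally by DESeq2 and limma voom. Of 11 tested laminins 0 were called by these tools. At an unadjusted p under 0.05 there was 1 integrin, Itgb4, and 1 laminin, Lamb3, both lower. The median log2 fold change was 0.01 for the integrins, -0.10 for the laminins and 0.00 for all tested genes.

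Lamb3 stood at 1.08, 1.53, 1.83 and 0.7497 CPM in BKO livers, against 2.998, 3.36, 3.53 and 1.45 CPM in BKO controls (tags F1, F3, F4 and F6, then F2, F5-2, F5 and F7). The groups overlapped in control F7 (edgeR log2 fold change -1.12 with SE 0.35, adjusted p = 0.223). Itgb4 stood at 1.67, 1.26, 1.74 and 0.815 CPM in BKO livers, against 2.205, 2.61, 2.8998 and 1.73 CPM in BKO controls. Its groups overlapped by F4 and F7 (edgeR log2 fold change -0.79 with SE 0.30, adjusted p = 0.334). Itgb1 averaged 132 ± 13.02 CPM in BKO livers and 148 ± 3.23 CPM in BKO controls (edgeR log2 fold change -0.16 with SE 0.09, adjusted p = 0.531). Itga2b averaged 2.88 ± 0.275 CPM in BKO livers and 3.74 ± 0.381 CPM in BKO controls, and its groups did not overlap (edgeR log2 fold change -0.38 with SE 0.19, adjusted p = 0.473).

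The genes with the largest changes in DKO livers were not called in BKO livers. Itgax averaged 1.74 ± 1.21 CPM in BKO livers and 1.31 ± 0.768 CPM in BKO controls (edgeR log2 fold change 0.42 with SE 0.64, adjusted p = 0.867). Itga4 stood at 13.9, 14.6, 33.9 and 16.8 CPM in BKO livers, against 17.7, 16.7, 13.2 and 22.7 CPM in BKO controls, with F4 apart from the other 3 BKO livers. Library F4 was also the highest BKO liver in Itgal, Itgam, Itgax (3.27 CPM) and Itgb2. Its Kupffer cell markers summed to 679 CPM, against 208 to 351 CPM in the other BKO livers and 283 to 359 CPM in BKO controls. Lama1 averaged 16.1 ± 2.17 CPM in BKO livers and 15.9 ± 2.798 CPM in BKO controls (edgeR log2 fold change 0.02 with SE 0.15, adjusted p = 0.984). Lama2 averaged 5.99 ± 2.08 CPM in BKO livers and 5.71 ± 0.903 CPM in BKO controls (edgeR log2 fold change 0.07 with SE 0.25, adjusted p = 0.954). The log2 fold changes of the 25 tested integrins ran from -0.79 (Itgb4) to 0.42 (Itgax), and those of the laminins from -1.36 (Lamc3) to 0.07 (Lama2).

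**Figure D4:**
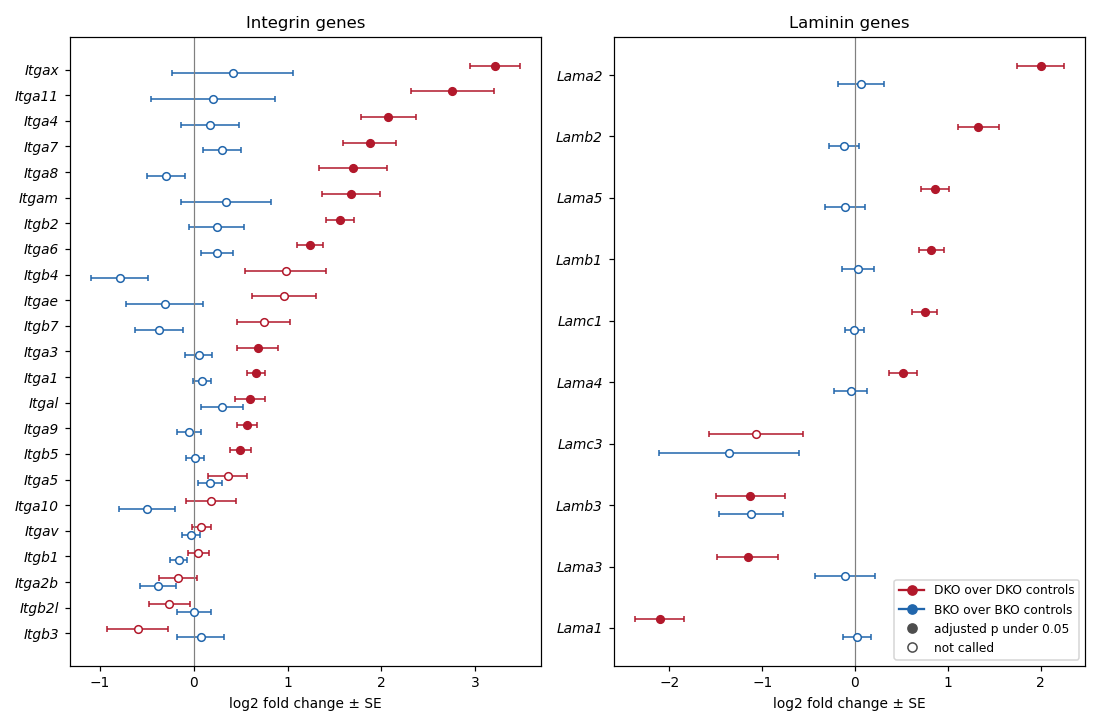
Log2 fold change with its SE (horizontal axes) of the 23 integrins and 10 laminins tested in DKO livers, for DKO over DKO controls (red) and BKO over BKO controls (blue), filled where the adjusted p is under 0.05. The filled red points are 13 integrins, all above 0, and 9 laminins, 6 above and 3 below 0, and no blue point is filled.

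The change in DKO livers was then set against the change in BKO livers in a fit over all 16 libraries, in which each knockout kept its own controls. Of 25 tested integrins, 12 changed more upward in DKO than in BKO livers (Itga1, Itga4, Itga6, Itga7, Itga8, Itga9, Itga11, Itgax, Itgb2, Itgb4, Itgb5 and Itgb7) and none more downward, beside 11.0% and 11.5% of 14050 tested genes. At an unadjusted p under 0.05, 17 integrins were more upward and 0 more downward. Of 11 laminins, 5 changed more upward (Lama2, Lama5, Lamb1, Lamb2 and Lamc1) and 1 more downward (Lama1). DKO libraries had lower depth than BKO libraries, and the experiments were counted in separate tables.

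The difference for Itgax was 2.77 on the log2 scale (SE 0.77, edgeR adjusted p = 0.0177). For Lama1 it was -2.16 (SE 0.30, edgeR adjusted p = 9.53e-05), and for Lama2 it was 1.90 (SE 0.37, edgeR adjusted p = 0.00177). Lamb3 had log2 fold changes of -1.13 ± 0.37 (SE) in DKO livers and -1.12 ± 0.35 (SE) in BKO livers, with a difference of -0.04 (SE 0.54). Itga3, Itgal, Itgam, Lama3 and Lama4, called in DKO livers, were not called for the difference, with adjusted p of 0.122, 0.544, 0.143, 0.104 and 0.119 in that order. Without BKO library F4, Itgam was called (log2 2.05, adjusted p = 0.00425).

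Itgb4 and Itgb7, not called in either knockout, were called for the difference. Itgb4 had a log2 fold change of 0.98 ± 0.43 (SE) in DKO livers and -0.79 ± 0.30 (SE) in BKO livers. Itgb7 had 0.75 ± 0.28 in DKO livers and -0.37 ± 0.25 in BKO livers. In BKO it stood at 2.403, 2.06, 2.63 and 1.79 CPM in BKO livers, against 1.999, 2.95, 3.88 and 2.64 CPM in BKO controls. The Itgb7 call was lost without any one of 12 libraries (DKO-7068, DKO-7070 and DKO-7112, controls WT-7067, WT-7114 and WT-7139, BKO F1, F3 and F6, and BKO controls F5-2, F5 and F7), with adjusted p between 0.0563 and 0.114.

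Other calls for the difference were also lost without single libraries. The Itgb4 call was lost without DKO-7068 or DKO-7070, control WT-7139, BKO F6 or BKO control F5 (adjusted p 0.0506 to 0.0707). The Itgb5 call was lost without DKO-7070 or DKO-7112, control WT-7069, BKO F6 or BKO controls F5-2 or F5 (adjusted p 0.0532 to 0.0636). The Itga11 call was lost without DKO-7068, DKO-7070 or DKO-7137, controls WT-7067, WT-7069 or WT-7114, BKO F3 or BKO controls F2, F5 or F7 (adjusted p 0.0517 to 0.0806). The Lamb1 call was lost without DKO-7070 (0.66, adjusted p = 0.0547). Calls were gained for Itga2 without BKO control F5-2 (1.89, adjusted p = 0.0212), for Itgae without BKO control F5 (1.45, adjusted p = 0.0495) and for Lama4 without BKO F4 (0.67, adjusted p = 0.0428) or BKO control F7 (0.66, adjusted p = 0.0485). With F5 and F5-2 summed to 1 library, the Itgb5 (0.43, adjusted p = 0.05298) and Itgb7 (0.99, adjusted p = 0.0734) calls were lost and Itga2 was called (1.69, adjusted p = 0.0444). limma voom did not call Itgb4 (1.65, adjusted p = 0.0531) or Itgb7 (1.05, adjusted p = 0.0702).

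Genes that work with the integrins were also counted. Of 36 genes of the adhesion complex that links integrins to actin, 35 were tested in DKO livers, and 15 rose and 4 fell, beside 19.2% higher and 16.6% lower among all tested genes. Their median log2 fold change was 0.39, against 0.02 for all tested genes. Flna, the filamin actin crosslinker, averaged 133 ± 21.04 CPM in DKO livers and 54.2 ± 6.77 CPM in DKO controls (edgeR log2 fold change 1.29 with SE 0.14, adjusted p = 0.0001). Nedd9, an adhesion scaffold, averaged 18.96 ± 1.34 CPM in DKO livers and 8.39 ± 1.19 CPM in DKO controls (edgeR log2 fold change 1.17 with SE 0.14, adjusted p = 0.000151). Apbb1ip, the Rap1 effector that brings talin to integrins, averaged 10.3 ± 1.62 CPM in DKO livers and 3.69 ± 0.469 CPM in DKO controls (edgeR log2 fold change 1.48 with SE 0.18, adjusted p = 0.000183). The 4 that fell were Parva, Sharpin, Tns1 and Ptk2b, a focal adhesion kinase relative, which averaged 20.5 ± 5.96 CPM in DKO livers and 52.5 ± 10.4 CPM in DKO controls (edgeR log2 fold change -1.36 with SE 0.22, adjusted p = 0.00104). Tln1, the talin that activates integrins, averaged 232 ± 14.02 CPM in DKO livers and 224 ± 13.2 CPM in DKO controls and was not called.

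Of 28 matrix and cell surface ligands, 23 were tested, and 13 rose and 1 fell, beside the same 19.2% and 16.6%. Their median log2 fold change was 0.92. Thbs1, a matricellular glycoprotein that activates TGF-beta, averaged 23.9 ± 5.09 CPM in DKO livers and 1.59 ± 0.682 CPM in DKO controls (edgeR log2 fold change 3.91 with SE 0.28, adjusted p = 8.35e-06). Tnc, the matrix protein of wounds that Itga9 receptors bind, averaged 27.4 ± 8.64 CPM in DKO livers and 1.81 ± 0.921 CPM in DKO controls (edgeR log2 fold change 3.91 with SE 0.35, adjusted p = 5.03e-05). Thbs2, a relative of Thbs1, averaged 14.9 ± 3.54 CPM in DKO livers and 3.91 ± 0.514 CPM in DKO controls (edgeR log2 fold change 1.94 with SE 0.20, adjusted p = 7.83e-05). Ecm1, which holds latent TGF-beta inactive in mouse liver, fell and averaged 30.8 ± 5.84 CPM in DKO livers and 123 ± 18.1 CPM in DKO controls (edgeR log2 fold change -2.00 with SE 0.16, adjusted p = 1.59e-05). Vcam1, the ligand of Itga4 receptors, averaged 66.8 ± 13.8 CPM in DKO livers and 19.98 ± 8.75 CPM in DKO controls, and Icam1, the ligand of Itgb2 receptors, averaged 21.3 ± 7.28 CPM in DKO livers and 11.8 ± 1.83 CPM in DKO controls, and both rose.

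Of 25 basement membrane partners and other laminin receptors, 23 were tested, and 8 rose and 1 fell, again beside 19.2% and 16.6% of all tested genes. Their median log2 fold change was 0.37. Col4a2, a chain of type IV collagen, averaged 205 ± 18.7 CPM in DKO livers and 47.2 ± 9.36 CPM in DKO controls (edgeR log2 fold change 2.11 with SE 0.15, adjusted p = 8.48e-06). Nid1, the nidogen that bridges laminin and type IV collagen, averaged 169.8 ± 48.8 CPM in DKO livers and 43.1 ± 5.09 CPM in DKO controls (edgeR log2 fold change 1.98 with SE 0.19, adjusted p = 4.48e-05). Frem1, a basement membrane adhesion protein, averaged 8.68 ± 3.77 CPM in DKO livers and 1.27 ± 0.376 CPM in DKO controls (edgeR log2 fold change 2.75 with SE 0.36, adjusted p = 0.000277). Col4a1, another chain of that collagen, had the smallest p of the list, with a 5.101-fold ratio of means, DKO livers over DKO controls. The 1 that fell was Sdc4, a heparan sulfate receptor, and its call was lost without library DKO-7068 or any one of controls WT-7067, WT-7069 and WT-7139, which left 0 called lower. Dag1, the dystroglycan receptor for laminin, averaged 148 ± 17.6 CPM in DKO livers and 178 ± 7.49 CPM in DKO controls and was not called. In BKO livers 0 genes of these 3 lists were called, beside 0.185% higher and 0.398% lower among all tested genes. For the difference 9, 9 and 7 were more upward and 3, 1 and 0 more downward, in the order given, beside 11.0% and 11.5% of all tested genes.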

How the data were processed

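TRIzol was used to extract RNA of whole liver, and a NuGEN Ovation kit to build the libraries (per the labels). The authors deposited whole, unnormalized counts per gene, in 1 table for each experiment. The tools in the submitters' processing notes are featureCounts 1.6.2, HISAT2 2.1.0 and Trim Galore 0.4.1. No source used here gives the strand setting or the annotation behind the counts. All 38 members matched GENCODE M21 (GRCm38) by symbol. Of these, 21 overlap another gene, 16 have an opposite-strand gene and 12 share exon bases with another gene, so some reads counted for them may come from that gene.

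Each table was fitted with edgeR 4.0.16 in R 4.3.3 (robust quasi-likelihood, filterByExpr, TMM). A call is a Benjamini-Hochberg adjusted p under 0.05 over all genes tested. The difference of the knockout effects was fitted over 16 libraries and 24394 shared names. Each SE was obtained from the log2 fold change and its F statistic. The steps were tested on simulated counts. The alternatives were size factors or the Wald test of DESeq2 1.42.0, total counts alone, other filters, limma 3.58.1 voom, the tag series as a block, each library left out, F5 and F5-2 summed, and, added after the data had been seen, DKO-7068 and DKO-7070 summed.

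That libraries came from separate animals rests on the tags, and p-values measure the spread between these samples. F5 and F5-2 share a tag and may come from 1 animal, which would leave 3 BKO control animals. The labels list them as separate samples, and they were kept apart. The chi-square of their counts was 65.8 per degree of freedom, and that of DKO-7068 and DKO-7070 was 6.92, both beyond sampling noise. This does not tell separate animals from separate libraries of 1 animal. Members, gene lists and sequence words were chosen with earlier results of these data known. Library values are given for members that were called with a fold of 2 or more in DKO livers, that were called for the difference or whose mean log2 CPM reached 5. Other lists give up to 4 called genes by p, or up to 2 where none was called. Tln1, Vcam1, Icam1, Dag1, Sdc4 and the members given outside that rule were added after their values were seen. Values of 1 member are not reported here.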

Additional observations from a re-analysis of the deposited data

Results flagged for a closer look

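Within groups of 4, the distance of the most extreme library from the next was compared with the range of the group, and 11 of 138 groups passed the limit of Dixon's test, which chance passes in about 1 group in 20. In DKO livers, Itga1 in library DKO-7112 stood at 82.9 CPM, against 95.02 to 96.7 CPM in the other 3 libraries. In library DKO-7070, Itgae stood at 3.15 CPM, against 1.89 to 1.97 CPM in the other 3 libraries, and Itgb7 at 5.398 CPM, against 3.42 to 3.696 CPM in the other 3 libraries. In DKO controls, Itgae in library WT-7139 stood at 1.89 CPM, against 0.859 to 1.01 CPM in the other 3 libraries, and Itgb4 in the same library at 1.14 CPM, against 2.005 to 2.13 CPM in the other 3 libraries. Itgb2 in control WT-7069 stood at 11.2 CPM, against 7.63 to 8.202 CPM in the other 3 libraries.

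In BKO livers, Itga4 in library F4 stood at 33.9 CPM, against 13.9 to 16.8 CPM in the other 3 libraries. Itga1 in library F3 stood at 50.8 CPM, against 59.2 to 60.1 CPM in the other 3 libraries. In BKO controls, Itga8 in library F5-2 stood at 13.7 CPM, against 8.39 to 8.85 CPM in the other 3 libraries, and Itga2 in the same library at 0.508 CPM, against 1.56 to 1.77 CPM in the other 3 libraries. Itgb8 in control F5 stood at 1.49 CPM, against 0.318 to 0.508 CPM in the other 3 libraries.

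The knockout effects differed between DKO and BKO livers for 18 genes in the edgeR fit over 16 libraries. The differences, DKO minus BKO on the log2 scale, were 2.77 for Itgax, 2.54 for Itga11, 1.96 for Itga8, 1.87 for Itga4, 1.74 for Itgb4 and 1.54 for Itga7. They were 1.29 for Itgb2, 1.08 for Itgb7, 0.96 for Itga6, 0.59 for Itga9, 0.55 for Itga1 and 0.45 for Itgb5. Among laminins they were 1.90 for Lama2, 1.42 for Lamb2, 0.94 for Lama5, 0.76 for Lamb1, 0.72 for Lamc1 and -2.16 for Lama1.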

How the results depend on the processing

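In DKO livers 22 members were called, and over 16 alternatives their direction never turned. Of 352 values, 331 kept their call and 21 lost it. For the difference, 388 of 432 values of 18 members kept their call and 44 lost it. Total-count scaling moved the median log2 fold change of all genes by 0.18 in DKO livers, -0.07 in BKO livers and 0.28 for the difference. It left 1 laminin called lower in DKO livers, with Lama3 (-0.96, adjusted p = 0.0573) and Lamb3 (-0.95, adjusted p = 0.0757) lost. Itga5 (0.53, adjusted p = 0.04197), Itgae (1.15, adjusted p = 0.0293) and Itgb7 (0.93, adjusted p = 0.0393) were gained. With each library left out in turn, 0 to 1 integrins and 1 to 3 laminins were called lower in DKO livers. With no count filter, Itgb8 was called (1.599, adjusted p = 0.0414). No integrin or laminin was called in BKO livers under any alternative run. No paired analysis was possible because the groups share no replicate numbers. A fit with the tag series, each of which holds DKO and control libraries, as a block pairs no single libraries, and it kept all 22 DKO calls and added Itgb7 (adjusted p = 0.0388). For the difference, no count filter lost Itgb5 (adjusted p = 0.0549) and Itgb7 (0.067003). DKO-7068 and DKO-7070 summed lost Itga11 (adjusted p = 0.0639), Itgb4 (0.0594), Itgb5 (0.05304) and Itgb7 (0.0747), and, for DKO livers alone, Itga3 (0.0632), Lama4 (0.0542) and Lamb3 (0.0754). Total-count scaling added Itga2 (adjusted p = 0.038997), Itga3 (0.0307), Itgb1 (0.0356) and Lama4 (0.0239). Low counts limit Itgad, Itgb6, Itgb8, Itga2 and Itga11. The cause of these shifts was not tested.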
